A study of Rattus norvegicus with 21 samples.

Results

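The genes examined were 39 members of mitochondrial fatty acid oxidation and ketone body metabolism, chosen by symbol from a list that covers the carnitine shuttle, acyl-CoA ligases, the enzymes of the oxidation cycle, ketone body enzymes, fuel-choice kinases and regulators. All 39 were measured, by 57 of 31042 probe sets, among 14217 genes on the array. They were followed in the liver of male Harlan Sprague Dawley rats given BPDP (tert-butylphenyl diphenyl phosphate, an aryl phosphate ester) by gavage in corn oil once daily for 4 days, with liver taken on day 5. The 6 groups were corn oil vehicle (6 arrays) and BPDP at 64.6, 129.2, 258.1, 516.2 and 1032.5 mg/kg per day (3 arrays each). All groups share strain, sex, route and vehicle. The treatment protocol speaks of 5 vehicle rats, while 6 vehicle arrays are listed, and nothing ties each array to a rat of its own, so p-values measure the spread between arrays, which may be technical in part. Values are log2 hybridisation signal, so a difference of 1 is a doubling, and no level is set against that of another gene.

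Long-chain fatty acids are joined to coenzyme A by acyl-CoA synthetases, handed to carnitine at the outer mitochondrial membrane, carried across the inner membrane and returned to coenzyme A in the matrix. Each turn of the oxidation spiral then runs through dehydrogenation, hydration, a second dehydrogenation and thiolysis, with auxiliary enzymes for double bonds, and in the fasted liver the acetyl-CoA formed is turned into ketone bodies. Many of these genes are textbook targets of the nuclear receptor PPARα, which pairs with RXR on the DNA.

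The hepatocyte content of the samples was clear from 10 defining markers, albumin among them, whose summed signal (log2) was 17.48 to 17.49 at 1032.5 mg/kg and 17.51 to 17.58 in vehicle livers. None of the 10 passed the test at 1032.5 mg/kg (limma, 3 at an unadjusted p below 0.05), and 1 was lower at 516.2 mg/kg. Some markers of other cell types differed from vehicle. Of all genes 4.81% were higher and 4.14% lower at 1032.5 mg/kg, and 6.3% and 2.64% at 516.2 mg/kg. The marker lists are short, so 1 called marker says little about its list. At 1032.5 mg/kg 2 of 6 Kupffer cell markers were lower (summed signal 12.03 to 12.43, against 12.49 to 13.16 in vehicle livers), as were 3 of 9 stellate cell markers (11.49 to 11.76, against 11.87 to 12.50), 1 of 6 endothelial markers (11.81 to 12.04, against 11.61 to 12.53) and 2 of 3 erythroid markers (10.59 to 11.83, against 12.40 to 13.77), while 1 of 4 cholangiocyte markers was higher (10.04 to 10.35, against 9.37 to 9.97). The cholangiocyte marker called there was Epcam (log2 difference 0.71). It was the 1 marker of the 4 with a positive difference, and their median difference was -0.07. Their mean log2 signal, 6.84 to 7.01, lay inside the vehicle range of 6.62 to 7.17. At 516.2 mg/kg 5 of 9 stellate and 2 of 6 endothelial markers were lower. Of 7 skeletal muscle markers, 5 (Acta1, Myh4, Myl1, Tnnt3 and Casq1) lay below the lower quartile of probe sets on every array, and none of 4 adipocyte markers passed at any dose. The part of these shifts in the results was not tested. In pieces of whole liver, fewer cells of a type and less RNA per cell cannot be told apart.

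At one dose or more 14 members rose, and most of those belonged to the oxidation cycle and its auxiliary enzymes. Shares of all genes are given for each dose, as none was counted over the doses together. A gene was called when its difference from vehicle had an adjusted p below 0.05 in limma, with all 31042 probe sets tested together. At 64.6 mg/kg limma called 0 of 39 members, with 7 at an unadjusted p below 0.05, beside 0.387% of all genes called (0.197% higher and 0.19% lower). At 129.2 mg/kg it called 2 higher and 1 lower, 7.69% of the members beside 0.521% of all genes (0.352% higher and 0.169% lower). That count was 0 without replicate 2 of that dose, and 1 without vehicle replicate 1, 2, 3 or 5, without replicate 1 or 3 of that dose, or with an RNA integrity covariate. Shares of all genes were not counted in these alternative fits. At 258.1 mg/kg the count was 8 higher and 2 lower, 25.6% beside 3.56% (2.23% higher and 1.33% lower). At 516.2 mg/kg it was 9 higher and 2 lower, 28.2% beside 8.93% (6.3% higher and 2.64% lower). At 1032.5 mg/kg it was 13 higher and 2 lower, 38.5% beside 8.95% of all genes (4.81% higher and 4.14% lower) and 11.9% of the 9716 genes brighter than the median probe set. The members are mostly bright, with 3 of 39 below that median. Of those brighter genes 11.8% were called at 516.2 mg/kg (8.56% higher and 3.23% lower) and 4.89% at 258.1 mg/kg. All 5 comparisons share the same vehicle arrays.

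Most members that stood clear of vehicle did so upwards. All 3 dosed livers lay above all 6 vehicle livers for 1 member at 64.6, 10 at 129.2, 15 at 258.1, 12 at 516.2 and 16 at 1032.5 mg/kg, beside 3.23%, 3.03%, 5.66%, 8.97% and 6.89% of all genes. They lay below for 2 members at every dose, Acsl5 and Pdk4, beside 2.2%, 2%, 3.52%, 5.25% and 7.08% of all genes. Among genes brighter than the median probe set, 3.78%, 4.04%, 7.26%, 12.1% and 9.14% lay above from the lowest to the highest dose. Below lay 2.43%, 2.31%, 4.52%, 5.51% and 8.48%. The 1 member above at 64.6 mg/kg was Decr1.

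Over the 5 doses 16 members were called at least once, 14 of them higher and 2 lower, and 23 were not called at any dose. The share of all genes called over the 5 doses together was not counted. It is at least the 8.95% called at 1032.5 mg/kg. Of the 10 called at 258.1 mg/kg, 9 were also called at 516.2 mg/kg (9 of its 11) and 9 at 1032.5 mg/kg (9 of its 15). The first dose called was 129.2 mg/kg for 3 members, 258.1 mg/kg for 7, 516.2 mg/kg for 2 and 1032.5 mg/kg for 4. The median log2 difference from vehicle over all members was 0.02, 0.12, 0.20, 0.19 and 0.27 from the lowest to the highest dose, while the median over all genes stayed between -0.01 and 0.01. Over genes brighter than the median probe set, the median was 0.06 at 516.2 mg/kg.

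The mean signal over the 39 genes was 10.65 ± 0.11 in vehicle livers (SD, n = 6), 10.63 ± 0.07 at 64.6, 10.73 ± 0.09 at 129.2, 10.85 ± 0.06 at 258.1, 10.87 ± 0.04 at 516.2 and 10.97 ± 0.11 at 1032.5 mg/kg (SD, n = 3 each). Every liver at 1032.5 mg/kg, at 10.85, 10.98 and 11.06, lay above all vehicle livers, which ran from 10.53 to 10.82, whereas the groups at 258.1 and 516.2 mg/kg overlapped the highest vehicle liver (10.80 to 10.91 and 10.82 to 10.89). That highest liver, vehicle replicate 6, also stood apart over all probe sets, with a mean correlation of 0.989 with its own group against 0.993 for each of the others. It had the highest vehicle value for 15 of the 39 members. Without it 18 members were called at 1032.5 mg/kg, and the share of all genes called in that fit was not counted.

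**Figure D1:**
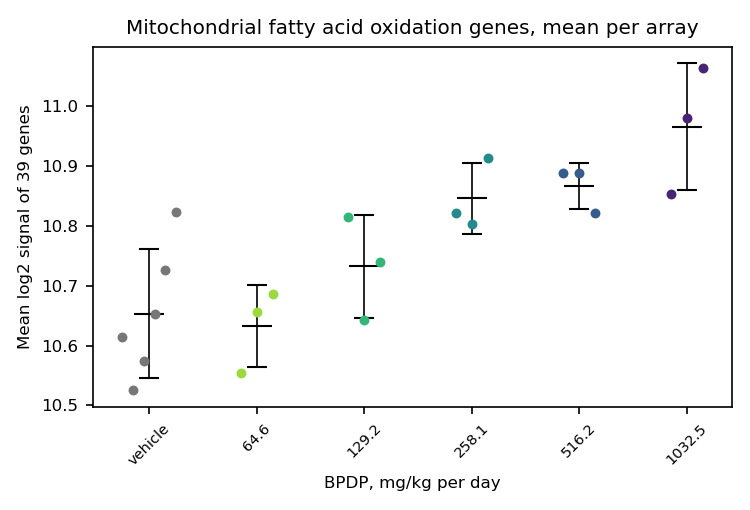
Mean log2 signal of the 39 genes on each array (points) by dose in mg/kg per day, with vehicle at the left, and the group mean and SD (bars, n = 6 for vehicle and 3 for each dose). The 3 livers at 1032.5 mg/kg lie at 10.85 to 11.06, above the vehicle range of 10.53 to 10.82.

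**Figure D2:**
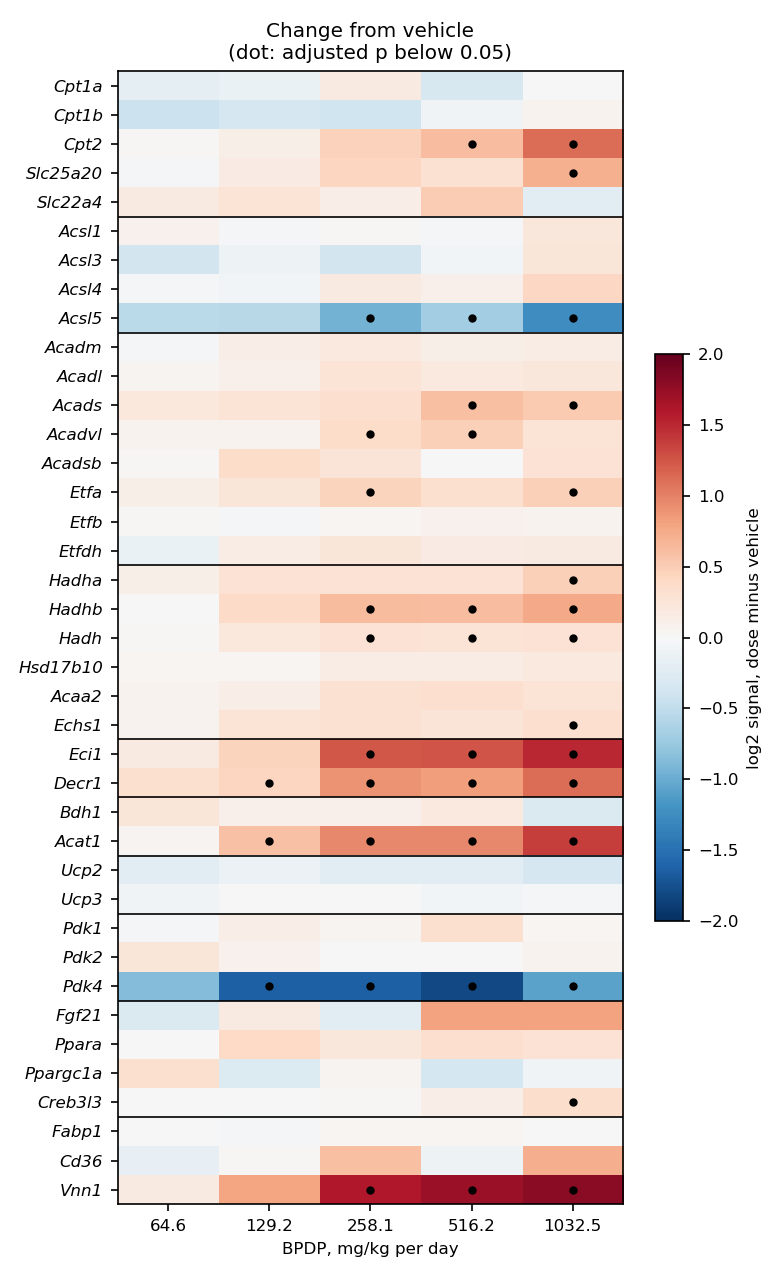
Difference in log2 signal from vehicle (colour, blue lower and red higher) for each of the 39 genes at each dose in mg/kg per day, with a dot where the adjusted p was below 0.05. Lines separate the role groups, from the carnitine shuttle at the top to lipid handling genes at the bottom, and Pdk4 and Acsl5 are the blue rows with dots.

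Of the 5 carnitine genes, 2 rose at 1032.5 mg/kg and none fell. Cpt2 encodes the inner membrane carnitine palmitoyltransferase that regenerates acyl-CoA in the matrix. It read 10.58 to 11.12 (median 10.81) in vehicle livers, 10.77, 10.97 and 10.82 at 64.6, 11.09, 10.80 and 10.99 at 129.2, 11.13, 11.27 and 11.49 at 258.1, 11.17, 11.65 and 11.52 at 516.2, and 11.85, 12.10 and 11.90 at 1032.5 mg/kg. No liver from 258.1 mg/kg upwards fell within the vehicle range. Cpt2 rose 1.53-fold at 516.2 mg/kg (log2 difference 0.61, SE 0.13, adjusted p = 0.00862, limma) and 2.16-fold at 1032.5 mg/kg (1.11, SE 0.13, adjusted p = 1.49e-05). The call at 516.2 mg/kg was lost without replicate 3 of that dose (adjusted p = 0.0506). At 258.1 mg/kg its difference of 0.46 did not pass (adjusted p = 0.074).

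Slc25a20, the carnitine-acylcarnitine translocase, was called higher at 1032.5 mg/kg. It read 10.64, 11.20 and 11.21 there, against 10.13 to 10.51 (median 10.31) in vehicle livers, a 1.63-fold difference (0.70, SE 0.14, adjusted p = 0.00298, limma). All 3 livers were above the vehicle range. At 258.1 mg/kg the livers, at 10.61, 10.61 and 11.01, were above the vehicle range too, but the difference of 0.43 did not pass (adjusted p = 0.129). At 516.2 mg/kg the values of 10.64, 10.86 and 10.34 overlapped those of vehicle livers. The doses were not tested against each other.

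Cpt1a, the liver carnitine palmitoyltransferase whose inhibition by malonyl-CoA sets the pace of the pathway, did not pass the test at any dose. Its 15 dosed values, between 11.55 and 12.21, all lay inside the vehicle range of 11.19 to 13.16 (median 11.60). Its log2 difference was -0.20, -0.13, 0.17, -0.33 and -0.00 from the lowest to the highest dose, each with SE 0.29. The 95% interval at 1032.5 mg/kg was -0.62 to 0.61, so a change within it in either direction is not excluded. With the adjustment over all probe sets, changes larger than that could go uncalled too. The SD within the dosed groups was 0.04 to 0.29, against 0.77 in vehicle livers, with vehicle replicates 5 and 6 at 12.59 and 13.16 and the other 4 at 11.66 or less. Cpt1b, the muscle form, and Slc22a4, a carnitine and ergothioneine transporter, were not called at any dose.

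Of the 4 acyl-CoA ligases only Acsl5, which activates long-chain acids at mitochondria and the endoplasmic reticulum, was called, and it fell. It read 11.69 to 12.29 (median 11.90) in vehicle livers, 11.59, 11.33 and 11.33 at 64.6, 11.59, 11.48 and 11.17 at 129.2, 10.89, 10.98 and 11.20 at 258.1, 11.36, 11.30 and 11.15 at 516.2, and 10.97, 10.27 and 10.92 at 1032.5 mg/kg. All 15 dosed livers were below all 6 vehicle livers. The log2 difference was -0.54 and -0.55 at the lowest doses, short of the threshold, and -0.94, -0.69 and -1.25 at 258.1, 516.2 and 1032.5 mg/kg (SE 0.15, adjusted p = 0.00115, 0.00808 and 1.66e-05, limma). The last is 2.37-fold lower, and the call at 516.2 mg/kg was lost without replicate 3 of that dose (adjusted p = 0.0538). A second, dimmer Acsl5 probe set was not called (-0.06 at 1032.5 mg/kg, adjusted p = 0.854), and the cause of the disagreement was not tested. Acsl1, the main hepatic ligase, differed by 0.22 at 1032.5 mg/kg (adjusted p = 0.0861), Acsl4 by 0.42 (adjusted p = 0.06) and Acsl3 by 0.24 (adjusted p = 0.495). The next brightest Acsl1 probe set read 12.75, 12.78 and 12.61 at 1032.5 mg/kg, above the vehicle range of 11.90 to 12.57. The dimmest Acsl1 probe set read 4.30, 4.48 and 4.43 there, against 4.35 to 4.50.

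Among 8 genes for the first dehydrogenation and for electron transfer, 3 rose at a dose or more. Acads, short-chain acyl-CoA dehydrogenase, read 12.004, 11.80 and 11.80 at 516.2 mg/kg and 11.72, 11.73 and 11.91 at 1032.5 mg/kg, against 11.05 to 11.45 (median 11.25) in vehicle livers. The groups did not overlap at any dose from 129.2 mg/kg, where its values began at 11.45. The rise was 1.52-fold at 516.2 (0.61, SE 0.10, adjusted p = 0.000717, limma) and 1.44-fold at 1032.5 mg/kg (0.53, SE 0.10, adjusted p = 0.00143).

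Acadvl, very long-chain acyl-CoA dehydrogenase of the inner membrane, had its highest mean at 516.2 mg/kg. It read 11.67, 11.63 and 11.71 at 258.1, 11.89, 11.58 and 11.85 at 516.2, and 11.47, 11.55 and 11.72 at 1032.5 mg/kg, against 11.19 to 11.40 (median 11.31) in vehicle livers. All 9 of these livers were above the vehicle range. The rise of 0.37 at 258.1 and 0.47 at 516.2 mg/kg passed (SE 0.09, adjusted p = 0.0244 and 0.00243, limma), while 0.28 at 1032.5 mg/kg did not (adjusted p = 0.0586), and whether the 2 highest doses differ was not tested. At 258.1 mg/kg the call was lost without vehicle replicate 1 or 3 or any replicate of that dose (adjusted p between 0.0528 and 0.139).

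Etfa, the alpha subunit of the flavoprotein that takes electrons from the acyl-CoA dehydrogenases, rose 1.35-fold at 258.1 mg/kg (0.44, SE 0.10, adjusted p = 0.0195, limma) and 1.39-fold at 1032.5 mg/kg (0.47, SE 0.10, adjusted p = 0.0044). It read 12.66, 12.72 and 12.94 at 1032.5 mg/kg, against 12.20 to 12.47 (median 12.29) in vehicle livers. At 516.2 mg/kg the 3 livers spread over 12.36, 12.67 and 12.83 and the gene was not called (adjusted p = 0.0564). The call at 258.1 mg/kg was lost without replicate 1 (adjusted p = 0.141) or 3 (adjusted p = 0.146) of that dose. Its partner subunit Etfb differed by 0.08 at 1032.5 mg/kg (adjusted p = 0.621), and Etfdh, the dehydrogenase that passes the electrons to ubiquinone, by 0.19 (adjusted p = 0.516). Medium-chain dehydrogenase Acadm read 13.17, 13.32 and 13.51 at 1032.5 mg/kg, against 13.10 to 13.28 in vehicle livers, a difference of 0.15 with a 95% interval of -0.02 to 0.32. Acadl and Acadsb were not called either.

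Of the 6 genes for the steps from hydration to thiolysis, 4 rose at 1032.5 mg/kg. The mitochondrial trifunctional protein is an assembly of alpha subunits, from Hadha, and beta subunits, from Hadhb, and catalyses the last 3 steps on long chains. Hadhb read 11.96 to 12.57 (median 12.16) in vehicle livers, 12.03, 12.24 and 12.33 at 64.6, 12.68, 12.50 and 12.57 at 129.2, 12.79, 12.78 and 12.91 at 258.1, 12.77, 12.90 and 12.78 at 516.2, and 12.72, 13.04 and 13.13 at 1032.5 mg/kg. The 3 upper doses lay above all vehicle livers. Its rise was 1.54-fold at 258.1 (adjusted p = 0.0057, or 0.0544 without replicate 3 of that dose), 1.53-fold at 516.2 (adjusted p = 0.00373) and 1.70-fold at 1032.5 mg/kg (log2 0.76, SE 0.12, adjusted p = 0.00032, limma).

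Hadha read 11.69, 12.19 and 12.28 at 1032.5 mg/kg, against 11.49 to 11.67 (median 11.56) in vehicle livers. It was called at that dose (1.40-fold, log2 0.48, SE 0.12, adjusted p = 0.0213, limma), with replicate 1 just above the vehicle maximum, and the call was lost without replicate 2 (adjusted p = 0.134) or 3 (adjusted p = 0.157). The 2 dimmer Hadha probe sets were not called. The subunit genes stand head to head on chromosome 6 in RefSeq's GRCr8 assembly, with start sites 301 bases apart, so that the 300-base promoter windows of the 2 genes share 200 bases. The Hadha window is shown because of that shared stretch, which is in capitals and has a G and C content of 53.5% (chr6:31907551-31907850, plus strand, 5′ to 3′).
Hadha: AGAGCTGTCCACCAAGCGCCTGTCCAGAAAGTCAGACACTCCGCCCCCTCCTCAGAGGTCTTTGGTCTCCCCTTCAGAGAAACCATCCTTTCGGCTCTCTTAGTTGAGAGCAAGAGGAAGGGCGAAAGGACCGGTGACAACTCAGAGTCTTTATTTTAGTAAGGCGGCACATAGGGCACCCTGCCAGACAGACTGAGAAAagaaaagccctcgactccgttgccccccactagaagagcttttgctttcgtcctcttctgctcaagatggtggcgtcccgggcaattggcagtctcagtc

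Hadh, the medium- and short-chain 3-hydroxyacyl-CoA dehydrogenase, rose by little but evenly. It read 13.35, 13.44 and 13.50 at 1032.5 mg/kg, against 12.997 to 13.21 in vehicle livers, and every liver from 129.2 mg/kg upwards was above the vehicle range. The log2 differences of 0.28, 0.27 and 0.29 at the 3 upper doses all passed (SE 0.07, adjusted p = 0.0238, 0.0186 and 0.00801, limma). These calls were near the threshold: the one at 258.1 mg/kg was lost without vehicle replicate 1 or without replicate 1 or 3 of that dose (adjusted p between 0.0545 and 0.136), the one at 516.2 mg/kg without replicate 1 or 2 (0.079 and 0.0597) and the one at 1032.5 mg/kg without replicate 3 (0.0591). Its dimmer probe set was not called. Echs1, the short-chain enoyl-CoA hydratase, rose 1.26-fold at 1032.5 mg/kg (0.33, SE 0.08, adjusted p = 0.0171), at 12.76, 12.57 and 12.66 against 12.06 to 12.47 in vehicle livers. The Echs1 call was lost without replicate 1 (adjusted p = 0.106) or 3 (adjusted p = 0.0574). Acaa2, the mitochondrial thiolase, was not called by its brightest probe set (0.27 at 1032.5 mg/kg, adjusted p = 0.192), whereas its dimmer one was higher at 516.2 mg/kg (0.64, adjusted p = 0.0257) and 1032.5 mg/kg (0.70, adjusted p = 0.0121). Hsd17b10, which acts on branched and short chains, was not called.

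Both genes for unsaturated chains rose at the 3 upper doses, with larger log2 differences there than any gene of the saturated cycle. Eci1, an enoyl-CoA isomerase that moves double bonds into place, read 11.85 to 12.37 (median 12.31) in vehicle livers, 12.20, 12.59 and 12.49 at 64.6, 12.82, 12.39 and 12.84 at 129.2, 13.30, 13.35 and 13.82 at 258.1, 13.57, 13.44 and 13.51 at 516.2, and 13.15, 14.06 and 14.02 at 1032.5 mg/kg. At the top dose replicate 1 was about 0.9 below the other replicates yet above every vehicle liver. The rise was 2.37-fold, 2.40-fold and 2.83-fold at 258.1, 516.2 and 1032.5 mg/kg (95% interval of the last, log2, 1.14 to 1.86; adjusted p = 0.000375, 0.000197 and 1.34e-05, limma). A second probe set for Eci1, much dimmer, was not called (0.16 at 1032.5 mg/kg, adjusted p = 0.651).

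Decr1, the 2,4-dienoyl-CoA reductase, was called at 4 of the 5 doses. It read 12.47 to 12.73 (median 12.59) in vehicle livers, 12.85, 13.01 and 12.93 at 64.6, 12.96, 12.87 and 13.26 at 129.2, 13.48, 13.40 and 13.60 at 258.1, 13.37, 13.42 and 13.53 at 516.2, and 13.56, 13.73 and 13.89 at 1032.5 mg/kg. All 15 dosed livers were above all 6 vehicle livers. The log2 difference was 0.42 at 129.2 mg/kg (SE 0.09, adjusted p = 0.0447, limma) and 1.12 at 1032.5 mg/kg (adjusted p = 2.08e-07), or 2.18-fold. The call at 129.2 mg/kg was lost without vehicle replicate 1, 2, 3, 5 or 6 and without each replicate of that dose, with adjusted p from 0.0555 to 0.312.

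In ketone body metabolism Acat1, the mitochondrial acetoacetyl-CoA thiolase, rose and Bdh1, the dehydrogenase that makes 3-hydroxybutyrate, did not pass at any dose. Acat1 read 11.27 to 11.92 (median 11.70) in vehicle livers, 11.55, 11.73 and 11.82 at 64.6, 12.34, 12.13 and 12.21 at 129.2, 12.56, 12.49 and 12.76 at 258.1, 12.43, 12.68 and 12.71 at 516.2, and 12.92, 12.90 and 13.25 at 1032.5 mg/kg. From 129.2 mg/kg no liver overlapped vehicle. Its rise was 1.498-fold at 129.2 mg/kg (adjusted p = 0.0414), 1.94-fold at 258.1 (adjusted p = 0.000158), 1.95-fold at 516.2 (adjusted p = 0.000102) and 2.60-fold at 1032.5 mg/kg (log2 1.38, SE 0.12, adjusted p = 6.6e-07, limma). The call at 129.2 mg/kg was lost without vehicle replicate 1, 2, 3 or 5 and without each replicate of that dose (adjusted p from 0.0555 to 0.265). A second Acat1 probe set rose as well at the 3 upper doses (log2 0.89, 1.17 and 1.08). Bdh1 read 11.55, 11.40 and 11.76 at 1032.5 mg/kg, against 11.53 to 12.07 (median 11.85) in vehicle livers, a difference of -0.29 (adjusted p = 0.215). A second Bdh1 probe set read 11.23, 11.29 and 11.61 there, against 10.93 to 11.57 in vehicle livers.

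**Figure D3:**
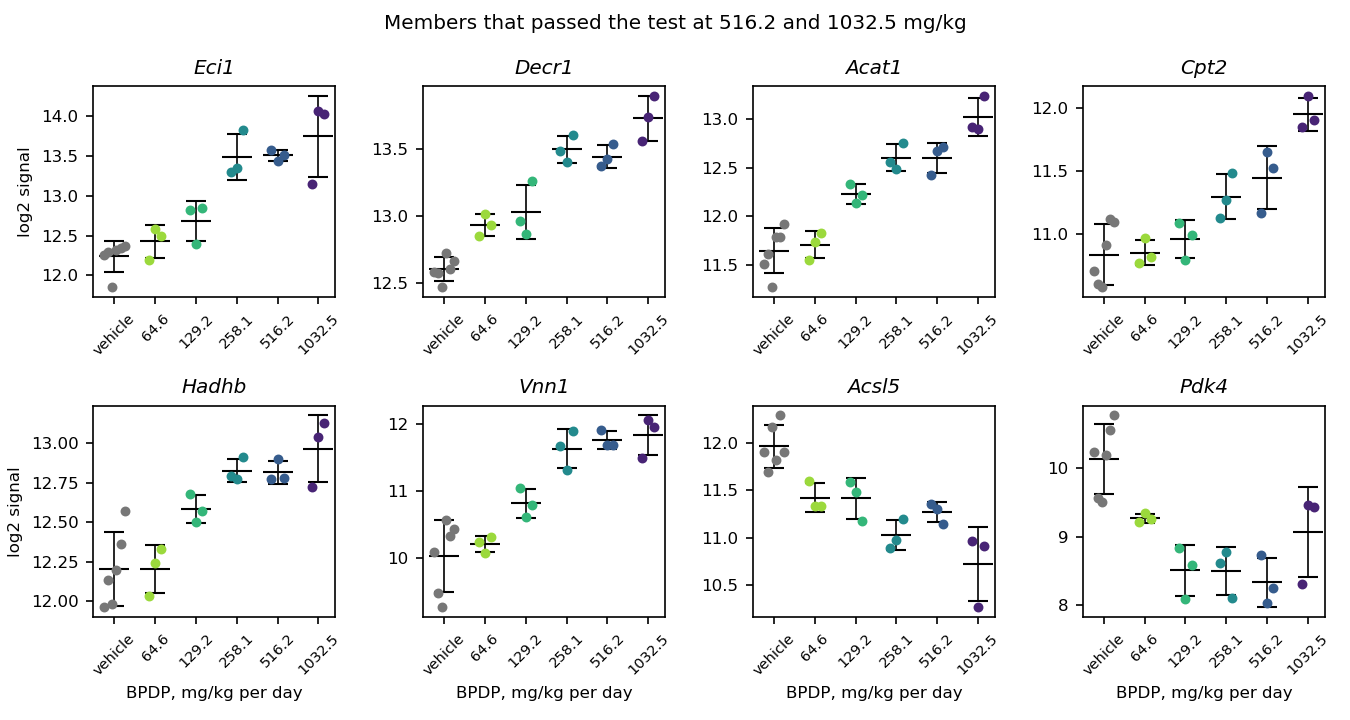
Log2 signal on each array (points) by dose in mg/kg per day, with vehicle at the left, and group mean and SD (bars, n = 6 for vehicle and 3 per dose), for 8 members called at both of the highest doses. Eci1, Decr1, Acat1, Cpt2, Hadhb and Vnn1 climb with dose, Acsl5 falls, and Pdk4 is lowest at 516.2 mg/kg.

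The 2 uncoupling proteins, Ucp2 and Ucp3, did not pass at any dose, with differences between -0.34 and -0.01. Of the 3 pyruvate dehydrogenase kinases, which turn off pyruvate dehydrogenase, Pdk4 fell while Pdk1 and Pdk2 were not called. Pdk4, the kinase known to rise in fasting, read 9.51 to 10.77 (median 10.22) in vehicle livers, 9.22, 9.35 and 9.25 at 64.6, 8.83, 8.10 and 8.60 at 129.2, 8.62, 8.79 and 8.11 at 258.1, 8.73, 8.03 and 8.25 at 516.2, and 8.31, 9.46 and 9.44 at 1032.5 mg/kg. All 15 dosed livers were below all vehicle livers, with replicates 2 and 3 at the top dose the closest. The log2 difference was -1.63, -1.64, -1.80 and -1.07 from 129.2 to 1032.5 mg/kg (SE 0.28, adjusted p = 0.0084, 0.00236, 0.000553 and 0.023, limma), or 3.49-fold lower at 516.2 mg/kg. At 1032.5 mg/kg the call rested on replicate 1: without it the difference was -0.69 (adjusted p = 0.216). At 129.2 mg/kg it was lost without replicate 2 (-1.43, adjusted p = 0.101). A second Pdk4 probe set was lower at the 3 upper doses too (-0.53, -0.63 and -0.55). At 129.2 mg/kg that probe set differed by -0.39 and was not called (adjusted p = 0.371, limma).

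Of the 4 regulators, 1 rose. Creb3l3, a liver transcription factor that acts with PPARα in fasting, read 12.88, 13.01 and 12.72 at 1032.5 mg/kg, against 12.43 to 12.63 (median 12.51) in vehicle livers, and rose 1.28-fold (0.35, SE 0.08, adjusted p = 0.00776, limma). No lower dose was called, and the call was lost without replicate 2 (adjusted p = 0.086). Ppara itself read 6.03 to 6.48 at 129.2, 5.90 to 6.23 at 258.1, 6.06 to 6.31 at 516.2 and 6.03 to 6.17 at 1032.5 mg/kg, each above the narrow vehicle range of 5.75 to 5.85, but its differences of 0.40, 0.23, 0.33 and 0.29 missed the threshold (adjusted p = 0.124, 0.333, 0.0522 and 0.105). It is 1 of the 3 members below the median probe set. Fgf21, the fasting hormone, ranged from 7.20 to 9.64 within the 129.2 mg/kg group alone and read 9.57, 8.77 and 8.39 at 1032.5 mg/kg, against 7.28 to 9.36 (median 8.05) in vehicle livers (log2 difference 0.81, 95% interval -0.19 to 1.81, adjusted p = 0.416). Ppargc1a, the coactivator of mitochondrial biogenesis, differed by -0.07 at 1032.5 mg/kg (adjusted p = 0.911), at 6.05, 6.12 and 6.55 against 5.83 to 6.70 in vehicle livers.

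Among 3 lipid handling genes Vnn1, a pantetheinase of the hepatocyte surface and a sensitive PPARα target, rose by the most of all 39 members. It read 9.27 to 10.58 (median 10.21) in vehicle livers, 10.25, 10.08 and 10.31 at 64.6, 11.05, 10.62 and 10.79 at 129.2, 11.68, 11.32 and 11.90 at 258.1, 11.91, 11.69 and 11.69 at 516.2, and 11.50, 12.06 and 11.95 at 1032.5 mg/kg. From 129.2 mg/kg every liver was above the vehicle range, though at that dose the difference of 0.79 did not pass (adjusted p = 0.217). The rise was 3.04-fold, 3.32-fold and 3.49-fold at 258.1, 516.2 and 1032.5 mg/kg (log2 1.60, 1.73 and 1.80, SE 0.23, adjusted p = 0.00042, 0.000124 and 3.38e-05, limma). Fabp1, the liver fatty acid binding protein, was not called at any dose, at 14.41, 14.53 and 14.66 at 1032.5 mg/kg against 14.47 to 14.58 in vehicle livers (0.01, 95% interval -0.13 to 0.15). Cd36, a fatty acid transporter, read 6.98, 7.45 and 7.75 at 1032.5 mg/kg, against 6.33 to 7.38 (median 6.56) in vehicle livers (0.73, adjusted p = 0.0948), and its brighter probe set, which names 2 genes, was set aside.

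**Figure D4:**
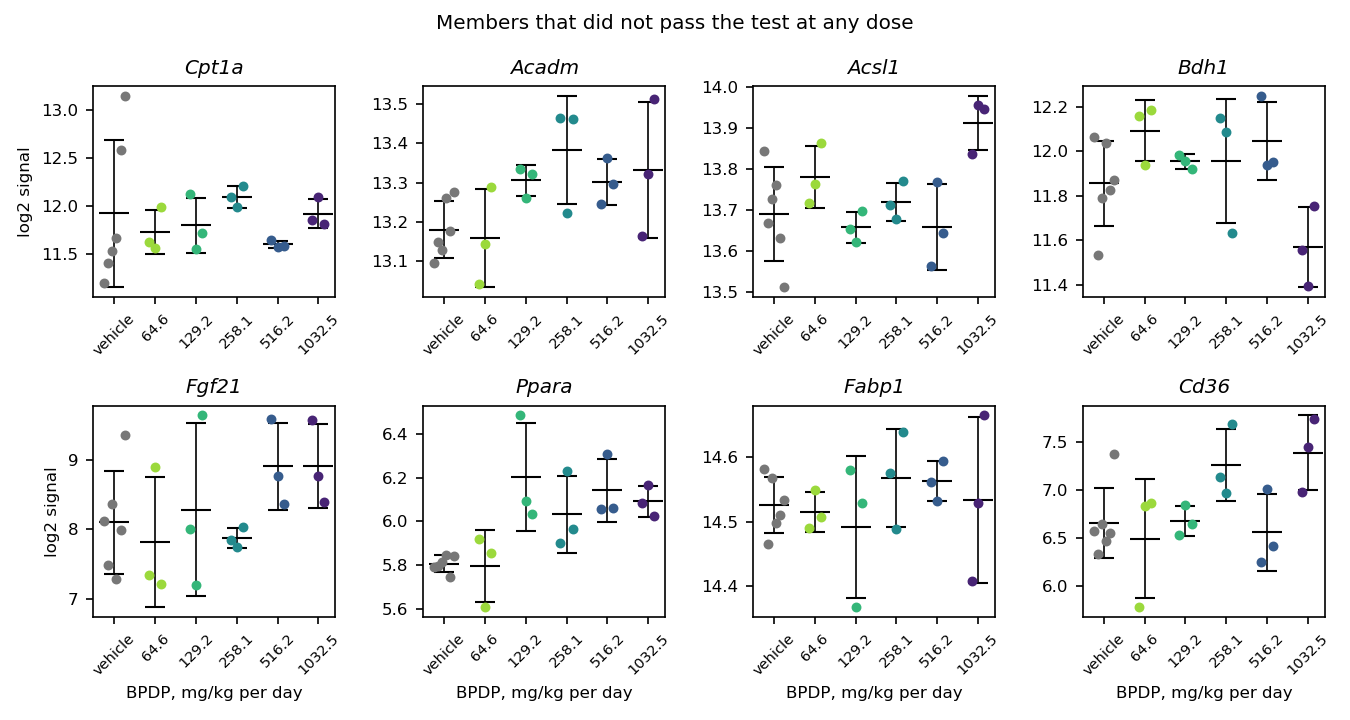
Log2 signal on each array (points) by dose in mg/kg per day, with vehicle at the left, and group mean and SD (bars, n = 6 for vehicle and 3 per dose), for 8 members called at no dose. Cpt1a spans 11.19 to 13.16 among vehicle livers, wider than among all dosed livers, and Fabp1 stays between 14.37 and 14.66.

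The rises were also sought without the vehicle arrays, as a slope per dose step over the 15 dosed livers. The slope was called for 8 of 39 members, all higher with dose and all among the 16 above, or 20.5% beside 3.41% of all genes (2.28% higher and 1.13% lower). With cyclic loess scaling the split was 6 higher and 1 lower, with the share of all genes not counted. Vnn1 had the steepest slope, 0.42 log2 per step (95% interval 0.31 to 0.53, adjusted p = 0.000198, limma), followed by Eci1 at 0.35 (adjusted p = 0.00108), Acat1 at 0.30 (adjusted p = 7.15e-05), Cpt2 at 0.27 (adjusted p = 0.000136) and Decr1 at 0.20 (adjusted p = 0.000623). Hadhb, Slc25a20 and Acads had slopes of 0.18, 0.16 and 0.10. The members that fell against vehicle gave no called slope: Acsl5 had -0.16 (adjusted p = 0.0658) and Pdk4 -0.06 (95% interval -0.23 to 0.11, adjusted p = 0.798). Bdh1 had -0.10 (adjusted p = 0.192) and Cpt1a 0.02 (adjusted p = 0.876). Genes outside the list differed strongly from vehicle at the lowest dose already, and their slopes over the dosed livers were not called (limma, adjusted p = 0.538 for Dbp, 0.148 for Nr1d1 and 0.178 for Angptl4). Dbp, a clock-controlled transcription factor, was 4.43 higher at 64.6 mg/kg and 4.78 higher at 1032.5 mg/kg (log2). The clock repressor Nr1d1 was called at every dose, at 2.81, 2.73, 2.62, 2.48 and 2.11 above vehicle from the lowest to the highest, with a slope of -0.16. Angptl4, a fasting-induced PPARα target, was called lower at 64.6 mg/kg (log2 difference -2.11, adjusted p = 0.00199), 258.1 mg/kg (-1.65, adjusted p = 0.00593) and 516.2 mg/kg (-1.22, adjusted p = 0.0251). It did not pass at 129.2 mg/kg (-0.97, adjusted p = 0.336) or 1032.5 mg/kg (-0.66, adjusted p = 0.275). The part of these differences in the member results was not tested.

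**Figure D5:**
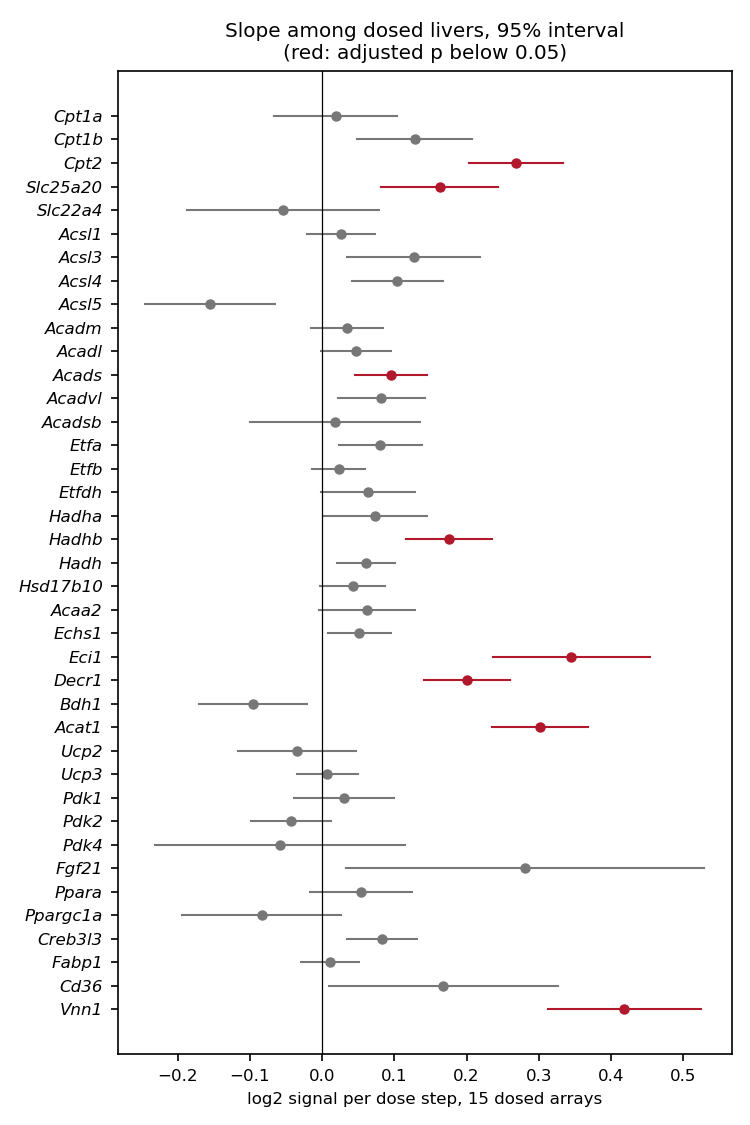
Slope of log2 signal per dose step over the 15 dosed livers (points) with 95% intervals (lines) for the 39 genes, in red where the adjusted p was below 0.05. The 8 red genes are all above 0, from Acads at 0.10 to Vnn1 at 0.42.

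Variation among livers of a dose ran across members. At 1032.5 mg/kg replicate 1 had the lowest value of its group for 26 of 39 members and for 10 of the 13 that rose, and replicate 3 the highest for 20. At 258.1 mg/kg replicate 2 was lowest for 7 of the 8 that rose. Without replicate 3 of that dose 6 members were called there in place of 10. The RNA integrity measure (5′ minus 3′ control signal, log2) ran from -2.40 to -1.68 in vehicle livers, -2.19 to -1.68 at 64.6, -2.004 to -1.57 at 129.2, -3.10 to -1.35 at 258.1, -2.83 to -1.58 at 516.2 and -1.96 to -1.28 at 1032.5 mg/kg. Below every vehicle liver were 258.1 mg/kg replicate 1 (-3.10) and 516.2 mg/kg replicates 1 and 3 (-2.49 and -2.83). Above every vehicle liver were replicates 2 and 3 at 129.2, 258.1 and 1032.5 mg/kg, and replicate 2 at 516.2 mg/kg. At 1032.5 mg/kg replicate 1 had the lowest measure (-1.96) and replicate 3 the highest (-1.28). The part of the measure in the spread among replicates was not tested. With the measure as a covariate 1 member was called at 129.2, 10 at 258.1, 13 at 516.2 and 17 at 1032.5 mg/kg, against 3, 10, 11 and 15 without it. The share of all genes called was not counted with the covariate or without replicate 3 at 258.1 mg/kg.

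PPARα and RXR bind a direct repeat of a hexamer with 1 base between the copies, AGGTCANAGGTCA. Promoter windows from RefSeq, 250 bases before to 50 after the start site on GRCr8, were searched on both strands for it with at most 2 mismatches over its 12 fixed letters. A match occurred in 7 of the 34 members with a window (20.6%) and in 5 of the 14 called at 516.2 or 1032.5 mg/kg (35.7%). Of all 33469 windows 3.77% had a match, and 0.439% had at most 1 mismatch. None of those 5 members was called at both doses. Acadvl was called at 516.2 and not at 1032.5 mg/kg, and Slc25a20, Etfa, Echs1 and Creb3l3 at 1032.5 and not at 516.2 mg/kg. No window was at hand for Cpt1b, Acadl, Acaa2, Decr1 and Vnn1. The windows shown here are the 5 called members with a match and Fabp1, an uncalled member with a match of 1 mismatch, with the matching bases in capitals. They lie at chr8:118243323-118243622 (plus strand) for Slc25a20, chr10:55236656-55236955 (minus) for Acadvl, chr8:64787916-64788215 (minus) for Etfa, chr1:204333457-204333756 (minus) for Echs1, chr7:9273070-9273369 (plus) for Creb3l3 and chr4:104749090-104749389 (plus) for Fabp1.
Slc25a20: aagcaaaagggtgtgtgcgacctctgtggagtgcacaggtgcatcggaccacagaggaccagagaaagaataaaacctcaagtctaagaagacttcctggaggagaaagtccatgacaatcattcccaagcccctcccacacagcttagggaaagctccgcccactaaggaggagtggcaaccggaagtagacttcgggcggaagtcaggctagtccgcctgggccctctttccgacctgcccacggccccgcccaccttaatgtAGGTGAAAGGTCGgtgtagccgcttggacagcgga
Acadvl: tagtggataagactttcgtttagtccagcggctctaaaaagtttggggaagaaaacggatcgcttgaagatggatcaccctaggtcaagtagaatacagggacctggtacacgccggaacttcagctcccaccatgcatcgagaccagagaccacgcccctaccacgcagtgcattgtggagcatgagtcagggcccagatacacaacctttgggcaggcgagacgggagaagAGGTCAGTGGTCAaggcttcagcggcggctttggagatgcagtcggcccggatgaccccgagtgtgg
Etfa: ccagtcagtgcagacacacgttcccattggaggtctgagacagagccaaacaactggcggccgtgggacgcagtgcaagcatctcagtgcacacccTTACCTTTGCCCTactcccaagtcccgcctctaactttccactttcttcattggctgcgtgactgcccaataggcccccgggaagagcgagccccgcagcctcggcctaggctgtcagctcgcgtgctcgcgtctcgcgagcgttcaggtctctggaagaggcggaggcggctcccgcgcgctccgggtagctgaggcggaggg
Echs1: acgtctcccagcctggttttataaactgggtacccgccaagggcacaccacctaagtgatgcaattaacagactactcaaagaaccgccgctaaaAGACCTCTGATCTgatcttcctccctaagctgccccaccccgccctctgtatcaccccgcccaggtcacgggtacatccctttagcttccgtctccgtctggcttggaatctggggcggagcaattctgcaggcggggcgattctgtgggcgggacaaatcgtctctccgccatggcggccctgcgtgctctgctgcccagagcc
Creb3l3: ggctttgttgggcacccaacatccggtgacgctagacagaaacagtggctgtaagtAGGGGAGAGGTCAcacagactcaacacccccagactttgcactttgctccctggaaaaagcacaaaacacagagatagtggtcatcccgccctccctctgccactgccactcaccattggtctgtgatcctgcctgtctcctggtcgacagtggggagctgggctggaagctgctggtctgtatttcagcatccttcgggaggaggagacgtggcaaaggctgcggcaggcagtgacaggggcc
Fabp1: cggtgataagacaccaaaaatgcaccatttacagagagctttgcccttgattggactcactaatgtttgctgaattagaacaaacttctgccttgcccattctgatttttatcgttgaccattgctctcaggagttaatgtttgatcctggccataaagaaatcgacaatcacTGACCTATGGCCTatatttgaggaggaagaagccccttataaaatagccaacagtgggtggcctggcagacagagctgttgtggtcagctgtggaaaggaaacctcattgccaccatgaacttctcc

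Counted from the start site, the Acadvl match begins at -17 and has 1 mismatch, as has the one of Fabp1, at -77. The match of Slc25a20 begins at 15 and those of Etfa, Echs1 and Creb3l3 at -154, -155 and -194, each with 2 mismatches. Those of Etfa, Echs1 and Fabp1 are on the strand opposite to the gene. Acadvl rose at 258.1 and 516.2 mg/kg while Fabp1 was called at no dose. The uncalled Ucp3 was the other member with a match. The windows of Eci1, Acat1, Cpt2 and Hadhb, which had called slopes, held no match, and that says only that these letters are not in those windows. A match is a description and not a bound site.

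Of 44 measured genes among 46 others of the pathway 10 were higher and 3 lower at 1032.5 mg/kg (29.5% called, beside 8.95% of all genes, of which 4.81% higher and 4.14% lower), with a median log2 difference of 0.14. The 3 lower are near the share of all genes. Bdh2, a cytosolic hydroxybutyrate dehydrogenase, was 1.53 higher (adjusted p = 0.000158, limma), at 7.25 to 7.58 against 5.14 to 6.32 in vehicle livers. Acsm5, a medium-chain ligase, was 1.17 higher (adjusted p = 0.00145). Slc16a1, the monocarboxylate carrier that moves ketone bodies and lactate, had a log2 difference of -1.28 (adjusted p = 3.71e-06) and was the 1 gene of the list called at 64.6 mg/kg (-0.85, adjusted p = 0.00305). In peroxisomal oxidation 10 of 20 measured genes were higher and 0 lower at 1032.5 mg/kg (13 at an unadjusted p below 0.05, limma), with a median of 0.46 beside 0.27 for the 39 mitochondrial genes. Ehhadh, the peroxisomal bifunctional enzyme, was 1.95 higher and Ech1, a dienoyl-CoA isomerase, 1.65 higher. In fatty acid synthesis 2 of 18 were higher and 3 lower at 1032.5 mg/kg, with a median of -0.13, while at 258.1 mg/kg 1 was higher and 5 lower (33.3%, beside 3.56% of all genes), with a median of -0.52. At 1032.5 mg/kg Scd, the stearoyl-CoA desaturase, had a log2 difference of -3.36 and Me1, the malic enzyme, 1.80. The difference between these lists was not tested.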

How the data were processed

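Total RNA from liver was hybridised to Affymetrix arrays (21 arrays in 6 groups, from the dose labels). The deposited values are log2 signals made with RMA, per the submitters' processing notes, and no further setting is given in the sources used here. From these values, with no further normalization, a linear model with a coefficient per group was fitted to all arrays in limma 3.58.1 (R 4.3.3, eBayes defaults), with each dose tested against vehicle, two-sided, and Benjamini-Hochberg adjustment over 31042 probe sets. A second model took the slope on the dose step over the 15 dosed arrays. Each gene's value comes from its brightest probe set on average, of those that name no other gene (20826 probe sets named 1 gene, 436 several and 9780 none). 57 control probe sets were left out. Tools for tables and figures were Python 3.11.15, numpy 2.4.6, pandas 2.3.3 and matplotlib 3.10.9.

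The members, context lists and markers were chosen with earlier results of these data known, so no p is given over the list or for its mean. Values are given for members called at any dose, for 11 index members (Cpt1a, Cpt2, Acadm, Hadha, Bdh1, Pdk4, Fgf21, Ppara, Ppargc1a, Creb3l3 and Vnn1), for up to 3 called genes of each context list, and for Dbp, Nr1d1 and Angptl4. On simulated data for 1032.5 mg/kg against vehicle, over 31042 probe sets, 92% of log2 changes of 1 and 60% of 0.5 were recovered with 8 false calls. For the slope, 95% of slopes of 0.3 and 30% of 0.1 were recovered with 16 false calls. Arrays give no read depth, and their number limits the precision. Deviations of same-numbered arrays in different groups had a median correlation of 0.005 (45 pairs, -0.28 to 0.39, 13 over 0.1). In the 135 other pairs the median was -0.008. The labels do not say whether the numbers pair arrays, and these correlations cannot settle it. The main fit did not pair them. Alternatives were the scaling, the filter on dim probe sets, the variance model, the arrays in the fit, the probe set of a gene, an RNA integrity covariate, a replicate block and the dose scale.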

Additional observations from a re-analysis of the deposited data

Results flagged for a closer look

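The 6 vehicle values of each member and of the mean over members were examined for a value far from the rest, 40 groups in all, of which chance alone marks about 1 in 20. In 2 cases, no more than that rate gives, a vehicle liver stood apart. Eci1 read 11.85 in vehicle replicate 3, with the nearest liver at 12.25 and the highest at 12.37, so the gap was 0.768 of the whole range. Cd36 read 7.38 in vehicle replicate 6, with the nearest liver at 6.64 and the lowest at 6.33, a gap of 0.706 of the range.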

How the results depend on the processing

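The share of all genes called was not counted under the alternatives, so the counts here are of members alone. The count of called members was 0 at 64.6 mg/kg under all alternatives. At 129.2 mg/kg it was 3, and 1 when vehicle and that dose alone were fitted, 1 with the RNA integrity covariate, and 0 to 3 with an array left out (0 without replicate 2 of that dose, 1 without vehicle replicate 1, 2, 3 or 5 or without replicate 1 or 3 of that dose). With cyclic loess the split there was 1 higher and 1 lower in place of 2 and 1. At 258.1 mg/kg it was 10, and 6 to 12 with an array left out (6 without replicate 3 of that dose). It ran from 9 to 12 around 11 at 516.2 mg/kg, from 12 to 18 around 15 at 1032.5 mg/kg, and from 6 to 11 around 8 for the slope. Fitting the replicate number as a block gave 3, 11, 11 and 16 members at the 4 upper doses and 7 for the slope. Under the block Decr1 (adjusted p = 0.0827) and Pdk4 (adjusted p = 0.142) at 129.2 mg/kg, Acadvl (adjusted p = 0.0558) and Hadh (adjusted p = 0.0552) at 258.1 mg/kg and Pdk4 at 1032.5 mg/kg (adjusted p = 0.227) were no longer called.

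For the next brightest probe set the log2 difference turned sign for Eci1 at 258.1 mg/kg (-0.062, adjusted p = 0.945) and for Acsl5 at 516.2 mg/kg (0.039, adjusted p = 0.863), and the cause was not tested. Of 681 alternatives for 39 single calls, 617 kept the call, 62 lost it in the same direction and 2 turned, and 19 calls held in every alternative. The mean difference over members at 1032.5 mg/kg, 0.31, ran from 0.26 to 0.37, and at 64.6 mg/kg, -0.02, from -0.05 to 0.02. The signals of Acadsb, Ppara and Ppargc1a, below the median probe set, limit what they can show. With 3 arrays per dose, changes of about 0.5 can go uncalled.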
